A study of Sus scrofa with 8 samples.

Results

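The genes described here build and load cilia: the intraflagellar transport (IFT) particles and their motors, the BBSome, and the transition zone at the ciliary base. The set was drawn up by gene symbol, and all 41 of its members were found among the 25880 pig genes of the count table, 40 through their Ensembl identifier and IFT22 by its position. By role, 12 belong to the IFT-B particle, 6 to the IFT-A particle, 5 to the IFT motors, 11 to the BBSome and the factors that assemble or recruit it, and 7 to the transition zone group, in which the membrane adaptor TULP3 was placed. They were measured by mRNA sequencing in the olfactory epithelium of newborn pigs, in 4 CFTR knock-out piglets (numbers 6, 18, 20 and 21) and 4 wild-type piglets (numbers 5, 9, 12 and 23), in a study of how smell is lost in cystic fibrosis. CFTR encodes an epithelial channel for chloride and bicarbonate, and its loss causes that disease. The labels call the knock-out animals CFTR-null, name no allele, strain, litter or sex, and give no treatment other than the genotype.

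A cilium has no ribosomes of its own, so every ciliary protein is carried in from the cell body. IFT-B particles are drawn to the tip by kinesin-II, IFT-A particles are drawn back by dynein-2, the BBSome moves membrane receptors along with these trains, and the transition zone acts as a gate at the base. Olfactory sensory neurons hold their odorant receptors, G protein, adenylyl cyclase and cyclic nucleotide-gated channel in long immotile cilia. Loss of BBS genes impairs the sense of smell in mice and in people, and loss of IFT88 impairs it in mice. The neighbouring respiratory epithelium carries motile cilia that are built by the same transport machinery, so bulk RNA holds both.

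Libraries held 39915150 to 43253395 counts on pig genes in the knockout group and 30836904 to 42281883 in the wild-type group. CFTR itself averaged 6.84 ± 1.36 CPM (counts scaled to a common library size) in knockout and 40.4 ± 10.9 CPM in wild-type piglets (SD, n = 4 each). Its log2 fold change, knockout over wild type, was -2.56 ± 0.21 (SE; edgeR adjusted p = 0.0121), and the adjusted p was 0.122 without knockout piglet 6 and 0.0544 without knockout piglet 20. Defining markers of the olfactory epithelium were read in all libraries. The 14 matched markers of mature sensory neurons (OMP was not matched by symbol or position) summed to 6923 to 8496 CPM in knockout and 4882 to 7807 CPM in wild-type libraries, and the 17 matched markers of motile ciliated cells to 892 to 1175 CPM in knockout and 963 to 1011 CPM in wild-type libraries. Knockout piglet 18 stood apart in bone and connective tissue genes, with a sum of 45706 CPM over 9 markers against 1749 to 2648 CPM in the other knockout libraries and 2088 to 5757 CPM in the wild-type libraries. Wild-type piglet 5 was lowest in the neuron markers.

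Ciliary transport genes were expressed in every library at levels that differed little between knockout and wild-type piglets. None of the 41 genes passed the test, an adjusted p under 0.05 over all 17175 genes in edgeR's quasi-likelihood test, either higher or lower. The only gene that passed among the 17175 (0.00582%) was CFTR. Each library is a separate piglet, so these p-values weigh the group difference against the spread between animals. In bulk tissue, fewer cells of a type and less RNA per cell cannot be told apart. DESeq2, which called 1.28% of all genes, and limma with sample quality weights, which called 0.064%, also called none of the 41. At an unadjusted p under 0.05, edgeR gave 2 of the 41, where 11.2% of all genes had such a p. Both were higher in the knockout, as were 5.4% of all genes, and no member was lower, as were 5.8% of all genes. DESeq2 gave 2, against 12.9% of all genes, and limma 10, against 22.6%.

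The intervals around these differences were narrow. The median log2 fold change of the 41 genes was 0.06, beside 0.01 over all genes tested. In 37 of the 41 genes (90.2%) the 95% interval of the fold change, taken for each gene by itself, lay within 1.5-fold in both directions, where 52.2% of all tested genes and 72.7% of the 11655 tested genes within the same range of mean CPM had such an interval. The exceptions were DYNC2H1, DYNC2LI1, KIF17 and BBS12. The share was not particular to this set: of 41 tested genes of the same machinery outside it, 37 (90.2%) had such an interval. Of the 41 genes, 28 had a log2 fold change above 0 and 13 below, where 51.6% of all tested genes were above 0. The 28 became 26 with upper-quartile scaling and 23 without wild-type piglet 5, when the median was 0.03 beside 0.02 for all genes. After leaving out the 13 members that share exon bases with another gene, and DYNC2H1 and BBS10, whose entries cover under 50% of their RefSeq span, 26 remained, with 17 above 0 and a median of 0.05. The covered span of KIF17, which is among the 26, was not measured.

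**Figure D1:**
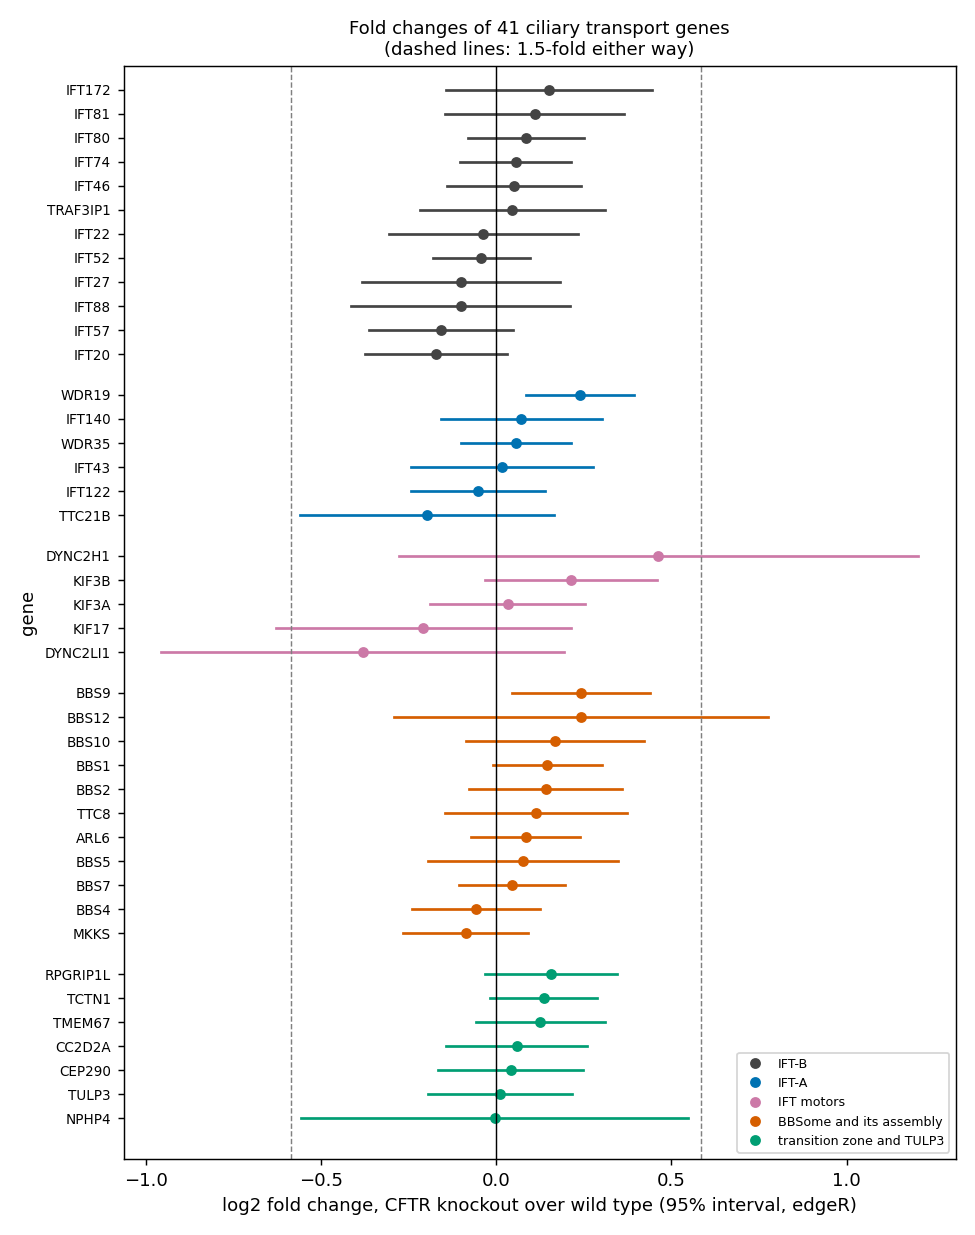
Log2 fold change of each of the 41 genes, CFTR knockout over wild type, on the horizontal axis, with its 95% interval from edgeR (4 piglets per group) and genes grouped by role on the vertical axis. Only WDR19 and BBS9 have intervals that leave out 0, and 4 intervals, those of DYNC2H1, DYNC2LI1, KIF17 and BBS12, cross a dashed line at 1.5-fold.

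Levels can be compared between genes only after dividing by exon length, and on this scale, CPM per kilobase of exon, the 41 genes spanned a 35.6-fold range with a median of 14.6. IFT172, a large subunit at the edge of the IFT-B particle, was highest, at 72.9 ± 7.31 in knockout and 65.7 ± 10.9 in wild-type piglets (SD, n = 4 each, CPM per kilobase). IFT46, a core IFT-B subunit, followed at 69.0 ± 4.88 in knockout and 66.6 ± 5.51 in wild-type piglets, and the small GTPase IFT27 at 54.6 ± 7.27 in knockout and 58.5 ± 7.06 in wild-type piglets. The lowest was BBS12, a chaperonin-like assembly factor, at 2.11 ± 0.367 in knockout and 1.78 ± 0.514 in wild-type piglets. When the genes were ordered by level, the ranges over the 8 libraries overlapped in 38 of 40 neighbouring pairs. The exceptions were the step from IFT27 (44.9 to 65.2 CPM per kilobase) to BBS4 (35.5 to 43.8) and the step from MKKS (7.53 to 8.86) to IFT52 (6.76 to 7.15). These levels rest on the deposited exon lengths. The IFT27 entry has 570 exon bases and spans 70.0% of the RefSeq gene. The DYNC2H1 entry has 3787 exon bases and spans 15.5% of the gene in the RefSeq annotation, with 2 unnamed entries of the same strand in the rest, so its level describes that stretch.

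**Figure D2:**
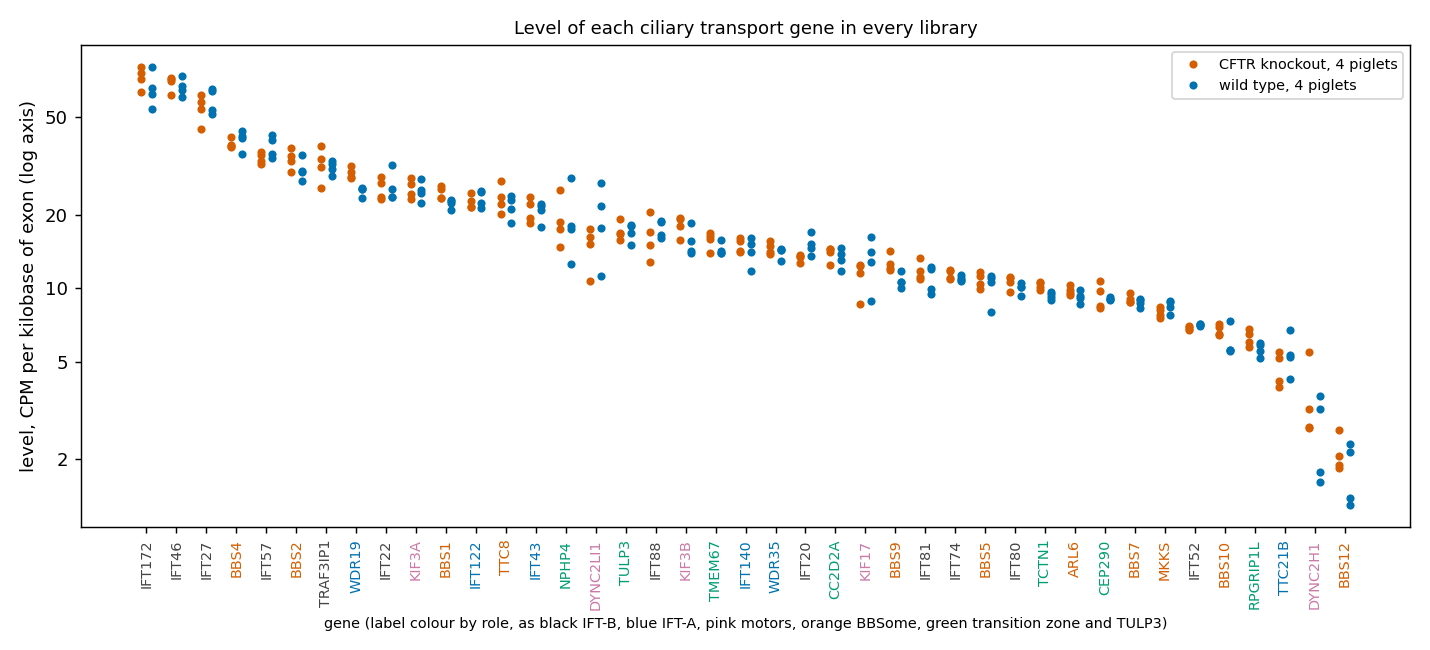
Level of each gene in CPM per kilobase of exon on a log axis, with 1 point per library, knockout piglets on the left and wild-type piglets on the right of each gene. Points of both groups intermingle for most of the 41 genes, from IFT172, with a mean over all libraries of 69.3 CPM per kilobase, down to BBS12 at 1.95.

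IFT-B, the particle that carries tubulin and other cargo to the ciliary tip, had as many genes above 0 as below. Of its 12 genes 6 lay above 0 and 6 below, with a median log2 fold change of 0.00, and all 12 intervals lay within 1.5-fold. The lowest p belonged to IFT20, the subunit that also works at the Golgi, where it sorts membrane cargo for cilia. IFT20 stood at 24.6, 26.3, 26.0 and 26.5 CPM in knockout piglets 6, 18, 20 and 21, against 26.3, 29.4, 28.2 and 32.7 CPM in wild-type piglets 5, 9, 12 and 23. The knockout values lay close together and wild-type piglet 5 fell among them. The log2 fold change was -0.17 ± 0.09 (SE, edgeR adjusted p = 0.480). On the IFT20 locus 61.1% of the exon bases are shared with TMEM97 on the opposite strand, and since strand-aware counting is not stated in the sources used here, reads of these 2 genes may not be told apart.

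IFT57, a subunit that binds to IFT20, had the next lowest p in the particle. Its values were 41.3, 42.4, 45.1 and 46.1 CPM in knockout piglets 6, 18, 20 and 21, against 43.7, 51.8, 45.2 and 54.4 CPM in wild-type piglets 5, 9, 12 and 23. Piglets 9 and 23 of the wild type were high in both IFT57 and IFT20, and the groups overlapped in both. The log2 fold change of IFT57 was -0.16 ± 0.09 (SE, edgeR adjusted p = 0.510).

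IFT172, the most abundant of the 41 genes per kilobase, had 330, 375, 420 and 396 CPM in knockout piglets 6, 18, 20 and 21, against 282, 344, 418 and 325 CPM in wild-type piglets 5, 9, 12 and 23. The wild-type values spread more widely than the knockout values and overlapped all of them but the highest, and the log2 fold change was 0.15 ± 0.13 (SE, edgeR adjusted p = 0.643). IFT52, a scaffold subunit of the IFT-B core and the least abundant of the 12 per kilobase, had 40.2, 40.6, 41.8 and 41.3 CPM in knockout piglets 6, 18, 20 and 21, against 42.1, 41.9, 42.6 and 42.3 CPM in wild-type piglets 5, 9, 12 and 23. All knockout values lay below all wild-type values, but by so little that the log2 fold change was -0.04 ± 0.06 (SE, edgeR adjusted p = 0.787). The remaining IFT-B genes were IFT22, IFT27, IFT46, IFT74, IFT80, IFT81, IFT88 and TRAF3IP1, with log2 fold changes between -0.10 (IFT88) and 0.11 (IFT81), among them the tubulin-binding pair IFT74 and IFT81 at 0.06 and 0.11.

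IFT-A, which returns material to the cell body and brings certain receptors into the cilium, held the gene with the lowest p of all 41. WDR19, a core IFT-A subunit on chromosome 8 (30463781 to 30553703, plus strand, build not stated), had 129.6, 136.6, 144.7 and 130.7 CPM in knockout piglets 6, 18, 20 and 21, against 116.9, 106.7, 117.2 and 118.0 CPM in wild-type piglets 5, 9, 12 and 23. Every knockout value was above every wild-type value. The group means were 135 ± 6.91 CPM in knockout and 115 ± 5.35 CPM in wild-type piglets (SD, n = 4 each), a 1.18-fold difference with a 95% interval of 1.06 to 1.31, but it did not pass over all genes (log2 fold change 0.24 ± 0.07 SE, edgeR adjusted p = 0.356). The adjusted p came closest to the threshold in DESeq2, at 0.0598. On simulated counts, unchanged genes made up 26.0% of DESeq2's calls, beside 5% for edgeR. Over the 15 alternatives the adjusted p ranged up to 0.762, without wild-type piglet 9, the lowest wild-type library for WDR19. That was the lowest adjusted p of the 41 genes in that edgeR fit, where 6.21% of all genes had an unadjusted p under 0.05. The log2 fold change of WDR19 lay between 0.21 and 0.26 in all 15. Of the WDR19 exon bases 7.11% are shared with RFC1 on the opposite strand, whose own log2 fold change was 0.17 ± 0.12 (SE, edgeR adjusted p = 0.589).

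The other 5 IFT-A genes had log2 fold changes between -0.20 and 0.07. TTC21B, a subunit at the edge of the particle and its least abundant per kilobase, had 21.7, 28.3, 26.9 and 20.4 CPM in knockout piglets 6, 18, 20 and 21, against 34.8, 27.7, 22.0 and 27.0 CPM in wild-type piglets 5, 9, 12 and 23. Wild-type piglet 5 was high and the groups overlapped, and the log2 fold change was -0.20 ± 0.16 (SE, edgeR adjusted p = 0.622). The core subunits IFT122 and IFT140 had log2 fold changes of -0.05 ± 0.08 and 0.07 ± 0.10, WDR35 had 0.06 ± 0.07 and IFT43 had 0.02 ± 0.12 (SE).

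The motors had the highest median biological coefficient of variation of the 5 groups, 20.1% over 5 genes, beside 12.1% for all 41 genes, which ranged between 9.99% (WDR19) and 33.8% (DYNC2H1), and 14.9% for tested genes within the same range of mean CPM. KIF3A, a motor subunit of kinesin-II and the most abundant motor per kilobase, was at 249, 237, 289 and 273 CPM in knockout piglets 6, 18, 20 and 21, against 228, 250, 287 and 259 CPM in wild-type piglets 5, 9, 12 and 23. The groups covered nearly the same range, and the log2 fold change was 0.03 ± 0.10 (SE, edgeR adjusted p = 0.905). KIF3B, its partner in the same motor, was at 118, 95.5, 109 and 116 CPM in knockout piglets, in the same order, against 95.1, 84.7, 112 and 86.6 CPM in wild-type piglets. Knockout piglets 18 and 20 lay within the wild-type range and wild-type piglet 12 within the knockout range, and the log2 fold change was 0.21 ± 0.11 (SE, edgeR adjusted p = 0.472).

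KIF17, a homodimeric kinesin of sensory cilia, averaged 34.2 ± 5.42 CPM in knockout and 39.5 ± 9.35 CPM in wild-type piglets (SD, n = 4 each, log2 fold change -0.21 ± 0.19 SE). The dynein-2 subunits had the most extreme fold changes of the 41 genes, in opposite directions and with the widest intervals. DYNC2H1, the heavy chain that moves the train back, had 12.2, 10.2, 20.7 and 10.3 CPM in knockout piglets 6, 18, 20 and 21, against 12.2, 6.71, 13.7 and 6.10 CPM in wild-type piglets 5, 9, 12 and 23. Knockout piglet 20 was high and wild-type piglets 9 and 23 were low, and the log2 fold change was 0.46 ± 0.33 (SE, edgeR adjusted p = 0.572), and 0.17 without knockout piglet 20.

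DYNC2LI1, the light intermediate chain of the same motor, had 19.5, 27.6, 29.3 and 31.8 CPM in knockout piglets 6, 18, 20 and 21, against 32.0, 49.0, 20.4 and 39.6 CPM in wild-type piglets 5, 9, 12 and 23. The wild-type animals alone differed by more than the group means, and wild-type piglets 9 and 23, low in DYNC2H1, were high here. The log2 fold change was -0.38 ± 0.25 (SE, edgeR adjusted p = 0.557), and -0.58 without wild-type piglet 12 and -0.18 without wild-type piglet 9. Its exons share 36.0% of their bases with ABCG5 on the opposite strand, which was nearly unread, at 0.00697 CPM in knockout and 0.0381 CPM in wild-type piglets on average.

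The BBSome group had a median log2 fold change of 0.11, with 9 of 11 genes above 0, where 51.6% of all tested genes were. The 9 became 8 without wild-type piglet 5, when the median was 0.08. None of the 11 passed the test in edgeR, DESeq2 or limma, and edgeR gave 1 at an unadjusted p under 0.05, beside 11.2% of all tested genes. BBS9, a scaffold subunit of the BBSome on chromosome 18 (39950745 to 40394356, minus strand, build not stated), had 43.9, 41.7, 50.1 and 42.3 CPM in knockout piglets 6, 18, 20 and 21, against 37.2, 35.0, 41.1 and 37.1 CPM in wild-type piglets 5, 9, 12 and 23. The lowest knockout value, in piglet 18, lay just above the highest wild-type value, in piglet 12. The 1.18-fold difference had a 95% interval of 1.03 to 1.36 (log2 fold change 0.24 ± 0.09 SE, edgeR adjusted p = 0.407). The BBS9 entry spans 60.7% of the RefSeq gene. CFTR lies on the same chromosome, at 28627719 to 28819815, and a bearing of this on BBS9 was not tested.

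BBS1, which contacts the recruiting GTPase ARL6 and is a site of common mutations in Bardet-Biedl syndrome, had 95.2, 88.0, 98.0 and 87.5 CPM in knockout piglets 6, 18, 20 and 21, against 83.9, 78.2, 85.0 and 86.1 CPM in wild-type piglets 5, 9, 12 and 23. The groups did not overlap here either, with 87.5 CPM in knockout piglet 21 next to 86.1 CPM in wild-type piglet 23. The log2 fold change was 0.15 ± 0.07 (SE, edgeR adjusted p = 0.456). BBS4, the most abundant BBSome subunit per kilobase, had 113, 111, 123 and 113 CPM in knockout piglets, in the same order, against 105, 124, 121 and 129 CPM in wild-type piglets, and lay on the other side of 0 at -0.06 ± 0.08 (SE, edgeR adjusted p = 0.780).

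Of the other BBSome subunits, BBS2, TTC8, BBS5 and BBS7 had log2 fold changes of 0.14 ± 0.10, 0.11 ± 0.12, 0.08 ± 0.12 and 0.05 ± 0.07 (SE), and ARL6 had 0.08 ± 0.07. The ARL6 exons share 39.4% of their bases with an unnamed gene on the opposite strand that was nearly unread, at 0.0300 CPM in knockout and 0.0397 CPM in wild-type piglets on average. The chaperonin-like factors that fold the BBSome core went both ways, with BBS10, whose entry spans 49.4% of the RefSeq gene, at 0.17 ± 0.11 and MKKS at -0.09 ± 0.08. BBS12, the third of these, had 5.76, 5.32, 7.41 and 5.16 CPM in knockout piglets 6, 18, 20 and 21, against 6.44, 3.64, 6.02 and 3.89 CPM in wild-type piglets 5, 9, 12 and 23. Wild-type piglets 9 and 23 were again the low ones, as in DYNC2H1, and the log2 fold change was 0.24 ± 0.24 (SE, edgeR adjusted p = 0.681).

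**Figure D3:**
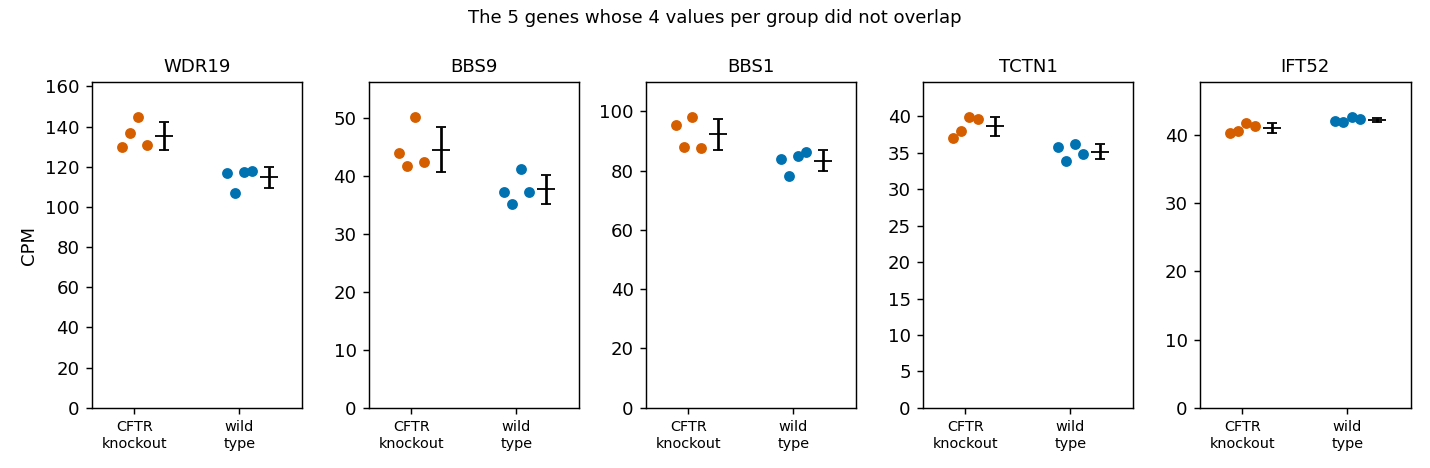
CPM in each of 4 CFTR knockout piglets (left) and 4 wild-type piglets (right) for the 5 genes whose groups did not overlap, each panel from 0 on its own axis, with the mean and SD in black. WDR19, BBS9, BBS1 and TCTN1 were higher in every knockout piglet, and IFT52 was lower in every knockout piglet by a small margin.

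In the transition zone group all 7 intervals lay within 1.5-fold and the median log2 fold change was 0.06. TCTN1, a tectonic protein of the gate on chromosome 14 (31976328 to 32010217, plus strand, build not stated), had 37.1, 38.0, 39.9 and 39.6 CPM in knockout piglets 6, 18, 20 and 21, against 35.8, 33.9, 36.2 and 34.8 CPM in wild-type piglets 5, 9, 12 and 23. The groups did not overlap, and the log2 fold change was 0.14 ± 0.07 (SE, edgeR adjusted p = 0.466). The gene shares 22.3% of its exon bases with HVCN1 on the opposite strand, which was at 3.48 ± 0.438 CPM in knockout and 3.14 ± 0.391 CPM in wild-type piglets (SD, n = 4 each). The TCTN1 entry spans 60.3% of the RefSeq gene.

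RPGRIP1L, a scaffold of the transition zone and the least abundant of the 7 per kilobase, had 38.6, 43.6, 45.8 and 40.7 CPM in knockout piglets 6, 18, 20 and 21, against 40.0, 34.9, 39.2 and 37.1 CPM in wild-type piglets 5, 9, 12 and 23. Only knockout piglet 6 fell into the wild-type range, and the log2 fold change was 0.16 ± 0.08 (SE, edgeR adjusted p = 0.487). NPHP4, a nephronophthisis protein that works with RPGRIP1L and the most abundant of the 7 per kilobase, had 70.5, 89.2, 121 and 83.7 CPM in knockout piglets, in the same order, against 60.1, 83.5, 86.6 and 135 CPM in wild-type piglets. Animals of either group differed far more than the groups, with means of 91.1 ± 21.5 CPM in knockout and 91.4 ± 31.6 CPM in wild-type piglets (SD, n = 4 each).

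Of the remaining members, CEP290, which links the ciliary membrane to the microtubules, had a log2 fold change of 0.04 ± 0.09, the membrane receptor-like TMEM67 had 0.13 ± 0.08, and CC2D2A, another protein of the gate, had 0.06 ± 0.09 (SE). TULP3, which hands membrane receptors to IFT-A, had 60.0 ± 5.28 CPM in knockout and 59.6 ± 4.93 CPM in wild-type piglets (SD, n = 4 each), and its log2 fold change was 0.01 ± 0.09 (SE). In all, the groups did not overlap in 5 of the 41 genes, where they did not in 5.81% of all tested genes. WDR19, BBS9, BBS1 and TCTN1 were the 4 above the whole wild-type range in every knockout piglet, where 2.45% of all tested genes were, and IFT52 the 1 below it, where 3.36% were. None of these 5 passed the test over all genes.

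None of the genes of the same machinery outside the 41 passed the test either. Of 42 further IFT, motor, BBSome, transition zone and ciliary small GTPase genes that were matched, 41 were tested, 18 lay above 0 and 23 below, and the median log2 fold change was -0.01. DESeq2 and limma also called none, and edgeR gave 5 at an unadjusted p under 0.05, where 11.2% of all tested genes had such a p. Of these 5, 3 were higher and 2 lower, beside 5.4% and 5.8% of all tested genes. Their lowest edgeR p values belonged to DYNLL1, a dynein light chain that serves many complexes, with 155 ± 14.03 CPM in knockout and 199 ± 32.8 CPM in wild-type piglets (log2 fold change -0.36 ± 0.13 SE, edgeR adjusted p = 0.406), and to CCDC28B, a BBSome-associated factor, with 5.03 ± 0.871 CPM in knockout and 7.79 ± 2.08 CPM in wild-type piglets (-0.63 ± 0.22, edgeR adjusted p = 0.407). The kinesin-II subunit KIF3C had a log2 fold change of 0.29 ± 0.12 and the transition zone protein TMEM107 had 0.24 ± 0.11 (SE), with edgeR adjusted p of 0.431 and 0.447. KIFAP3, which joins KIF3A and KIF3B to cargo, had 0.03 ± 0.07.

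Summed over the 41 genes, expression was 3142, 3128, 3498 and 3264 CPM in knockout piglets 6, 18, 20 and 21, against 2891, 3139, 3334 and 3213 CPM in wild-type piglets 5, 9, 12 and 23. The ratio of the means was 1.04, the groups overlapped, and by role the ratio lay between 1.03 for the motors and 1.06 for the BBSome group. The mature neuron markers summed to 8416, 6923, 7693 and 8496 CPM in knockout piglets, in the same order, against 4882, 6231, 7807 and 6865 CPM in wild-type piglets, a ratio of 1.22, and 13 of these 14 marker genes had a log2 fold change above 0, where 51.6% of all tested genes did. None of the 14 passed the test in edgeR, DESeq2 or limma, and 5 had an unadjusted edgeR p under 0.05, beside 11.2% of all tested genes. The motile ciliated cell markers summed to 985, 892, 1175 and 1112 CPM in knockout piglets against 1011, 963, 1009 and 990 CPM in wild-type piglets, a ratio of 1.05. These sums mix ciliated neurons, motile ciliated cells and all other cells with a primary cilium.

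Some libraries were low or high in many of the 41 genes. Wild-type piglet 5, lowest in the neuron marker sum, was also lowest of the 8 libraries in 13 of the 41 genes. Wild-type piglet 9, the library with the fewest counts, was lowest in 11. Knockout piglet 20, highest in the motile cilia marker sum, was highest in 16. The members did not follow the marker sums in every library. Knockout piglet 21, highest in the neuron marker sum, was highest in 2 of the 41 genes. Wild-type piglet 5 had the highest motile cilia marker sum of the wild-type libraries, at 1011 CPM. Such counts were not taken over all genes, so they have no background share beside them. Knockout piglet 18, high in bone genes, was highest in none and lowest in 2. Without piglets 5 and 18 together, 26 of the 41 genes lay above 0 with a median log2 fold change of 0.04 and none passed the test. The part of cell composition in these differences was not tested.

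**Figure D4:**
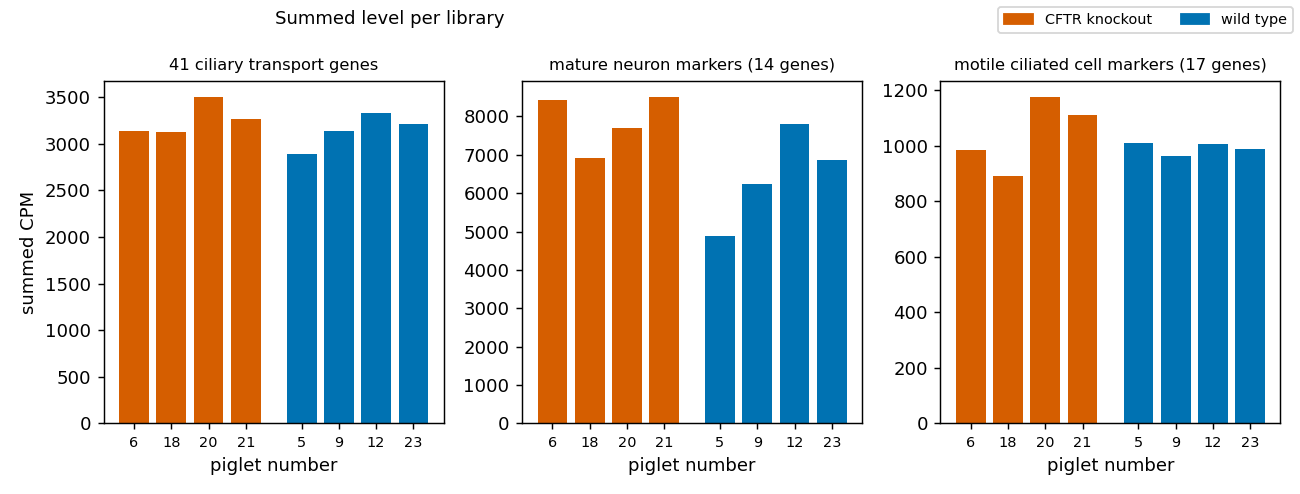
Summed CPM in each library, CFTR knockout piglets on the left and wild-type piglets on the right of each panel, for the 41 ciliary transport genes, 14 markers of mature olfactory sensory neurons and 17 markers of motile ciliated cells. The ciliary transport sum stays between 2891 and 3498 CPM, and wild-type piglet 5 is lowest in the first 2 panels.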

How the data were processed

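The deposited table holds unnormalized read counts for each gene and has the layout of featureCounts output, per the file headers, with the exon length of each gene. The submitters' processing notes list DESeq2, HTSeq, featureCounts, FastQC, Subread 1.5.0-p3 and STAR 2.4.0, and give no role or order for them. Genome build and strand setting are not given in the sources used here. Symbols came from a gene name table, or by position (50% overlap of both spans with RefSeq, Sscrofa11.1). Where the symbol was already known, position gave the same symbol for 94.4% of 12665 genes. Another 5888 identifiers of unstated origin were left out.

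Counts were fitted with edgeR 4.0.16 (quasi-likelihood, TMM, default filter, genotype as factor, Benjamini-Hochberg over 17175 genes at 0.05) in R 4.3.3. DESeq2 1.42.0, limma 3.58.1 with voom, other scalings and filters, and omission of libraries were alternatives. Standard errors come from the F statistic, intervals from its degrees of freedom, and CPM were scaled by TMM. No test was made for the 41 genes as a list. On simulated counts for this comparison (17175 genes), edgeR recovered 20% of genes set to differ 1.5-fold, 54% of those set to 2-fold and 94% of those set to 4-fold. Unchanged genes made up 5% of edgeR's calls, 26.0% of DESeq2's and 5.76% of limma's.

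The genes and lists were chosen with earlier results of these data known. Values in every library are given for the 8 members with the lowest p, for the 2 with the lowest p and the most and least abundant per kilobase in each group, and for the most extreme fold changes. Of the pathway genes outside the members, those with the lowest p were to be named, of which 4 are given and the others are not reported here, and KIFAP3 was chosen after its values were seen. The 41 genes had 115 to 18412 reads per library, and 13 of them share exon bases with a gene on the opposite strand, 4 of these over more than 20% of their own exon bases.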

Additional observations from a re-analysis of the deposited data

Results flagged for a closer look

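In 8 of 132 groups of 4 libraries examined, the highest or lowest library stood further from its nearest neighbour than Dixon's 95% critical value for 4 samples allows, where chance gives about 1 in 20 groups. WDR19 was low in wild-type piglet 9, at 106.7 CPM against 116.9 to 118.0 CPM in the other wild-type piglets. WDR35 was low in wild-type piglet 5, at 97.5 CPM against 107.5 to 108.7 CPM. BBS4 was high in knockout piglet 20, at 122.6 CPM against 111.2 to 113.0 CPM in the other knockout piglets. BBS10, at 28.2 CPM against 21.3 to 21.5 CPM, and TMEM67, at 82.2 CPM against 72.2 to 73.8 CPM, were high in wild-type piglet 12. KIF3C was low in knockout piglet 18, at 207.1 CPM against 241.6 to 243.3 CPM in the other knockout piglets. CFTR was high in wild-type piglet 5, at 56.6 CPM against 34.0 to 36.6 CPM in the other wild-type piglets. The bone and connective tissue markers summed to 45706 CPM in knockout piglet 18 against 1749 to 2648 CPM in the other knockout piglets.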

How the results depend on the processing

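None of the 41 genes was called under any of the 15 alternatives, and the lowest adjusted p was 0.0598, for WDR19 in DESeq2. Over all genes edgeR called 1, DESeq2 219, limma 11, and edgeR 2 without wild-type piglet 5 and knockout piglet 18. Leaving out 1 library gave 0 (without knockout piglet 6 or 20) to 16 (without wild-type piglet 12) calls, and 2 without wild-type piglet 5, 9 or 23. CFTR had log2 fold changes of -2.67 to -2.36, with an adjusted p of 0.122 without knockout piglet 6 and 0.0544 without knockout piglet 20. Of 615 fits of a member under an alternative, 23 changed sign, in 10 genes whose main log2 fold change was at most 0.078 in size, and the cause was not tested. These were IFT43 (-0.0012) and TULP3 (-0.0075) with upper-quartile factors, CEP290 (-0.017) in limma, and IFT43 (-0.020) and CC2D2A (-0.012) without piglets 5 and 18. Over the fits that leave out 1 library the range was -0.10 to 0.075 for IFT22, -0.044 to 0.14 for TRAF3IP1, -0.055 to 0.072 for IFT43, -0.017 to 0.13 for IFT140, -0.027 to 0.086 for KIF3A, -0.031 to 0.13 for BBS5, -0.035 to 0.093 for CEP290, -0.17 to 0.25 for NPHP4, -0.0051 to 0.11 for CC2D2A and -0.051 to 0.048 for TULP3. No litter is named in the labels, so no analysis paired by litter was possible. With 4 piglets a group, a change of any size within a gene's interval remains possible. The share of such changes that the test would call among the 41 genes was not measured.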

Other observations

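Transcription factors that switch on ciliary genes were not among the 41 genes. Of 10 factors listed for ciliogenesis that were matched and tested, 3 had a log2 fold change above 0 and 7 below, with a median of -0.09. None passed the test in edgeR (lowest adjusted p = 0.510). The list held RFX family members, RFX5 and RFX7 among them, whose part in ciliary genes was not tested here. FOXJ1, the factor of motile cilia, had 87.0 ± 21.3 CPM in knockout and 80.9 ± 18.8 CPM in wild-type piglets (SD, n = 4 each, log2 fold change 0.11 ± 0.22 SE). The lowest log2 fold changes of the list were those of MCIDAS at -0.57 ± 0.42, GMNC at -0.40 ± 0.26 and MYB at -0.30 ± 0.18 (SE). The RFX factors, a family of which some members bind the promoters of IFT and BBS genes, ranged from -0.13 ± 0.09 for RFX5 to 0.47 ± 0.27 for RFX3 (SE). RFX3 was looked at by library after its values were seen. It had 18.9, 20.3, 28.7 and 17.8 CPM in knockout piglets 6, 18, 20 and 21, against 15.9, 10.8, 24.2 and 10.9 CPM in wild-type piglets 5, 9, 12 and 23. As in DYNC2H1, knockout piglet 20 was highest and wild-type piglets 9 and 23 were the lowest libraries. The immature neuron marker DCX, outside the cilia lists, was also highest in knockout piglet 20, at 128 CPM. It was lowest in wild-type piglets 9 and 23, at 40.3 and 38.3 CPM. This was not a trait of the immature neuron markers as a list. GNG8 was lowest in knockout piglet 20, at 56.3 CPM, and highest in wild-type piglet 9, at 86.8 CPM. GAP43 was highest in wild-type piglets 23 and 9, at 341 and 305 CPM, beside 248 CPM in knockout piglet 20. A link between RFX3 and DYNC2H1 was not tested.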
